A study of Mus musculus with 20 samples.

Results

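Astrocytes clear glutamate and potassium from the space around synapses and pass them on through a network of coupled cells. The genes described here encode that machinery or, in the case of Aldh1l1 and Ntsr2, serve as astrocyte markers. They are the glutamate transporters Slc1a2 and Slc1a3, the glutamine synthetase Glul, the inward rectifier potassium channel Kcnj10, the water channel Aqp4, the connexins Gja1 and Gjb6, the folate enzyme Aldh1l1 and the neurotensin receptor Ntsr2. The 9 members were taken by symbol from the 55487 gene rows of a prefrontal cortex count table and, after Ensembl identifiers were mapped to symbols, from the 57180 of a hippocampal one. All 9 were found in both tables and passed the filter on low counts, with at least 1432 counts in every cortical library and 2246 in every hippocampal one. In the mm10 build, GENCODE vM21 places Slc1a2 at chr2:102658659-102790784, Slc1a3 at chr15:8634124-8710764, Glul at chr1:153899944-153909723 and Kcnj10 at chr1:172341210-172374085. It places Aqp4 at chr18:15389496-15410982, Gja1 at chr10:56377330-56402513, Gjb6 at chr14:57123303-57133611, Aldh1l1 at chr6:90486427-90600203 and Ntsr2 at chr12:16653382-16660227. Slc1a3, Aqp4 and Gjb6 are on the minus strand and the other 6 on the plus strand.

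Poly(A) RNA was sequenced from wild-type (WT) C57/BL6 mice, an inbred laboratory strain, aged 2 to 6 months. Prefrontal cortex (PFC) came from 4 males given lipopolysaccharide (LPS) into the peritoneum at 5 mg/kg and from 4 given 0.9% saline, each 24 h before dissection. LPS is the endotoxin of Gram-negative bacteria and sets off an immune response. Hippocampus came from 6 mice given nicotine at 0.2 mg/kg and from 6 saline mice, with the same strength of saline and the same interval. Library totals were 39871000 to 42924749 gene counts with LPS and 36371084 to 46106526 with saline in cortex, and 53145736 to 62982229 with nicotine and 51969343 to 68196280 with saline in hippocampus. The cortical libraries formed batch 1 and the hippocampal ones batch 2 in the labels, so tissue and batch cannot be told apart and each treatment was tested within its own table. All groups were bulk tissue, in which fewer astrocytes and less RNA per astrocyte cannot be told apart.

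The labels of 4 of the 8 cortical records contradicted themselves: the title and treatment field gave the opposite treatment to the column of the count table quoted in the same record. Groups here follow the column names, which place 2L, 4L, 5L and 7L in the LPS group and 1L, 3L, 6L and 8L in the saline group. The titles of 2L, 4L, 6L and 8L name the opposite one. The lipocalin gene Lcn2, a marker of acute inflammation, had 254 to 367 CPM in the LPS columns. It had 0.676 to 1.39 CPM in saline columns 1L, 3L and 6L and 13.5 CPM in saline column 8L, whose title names LPS. Of the saline libraries, 8L lay nearest the LPS libraries for Slc1a3, Kcnj10, Gjb6 and Aldh1l1, but not for Glul, Gja1 or Ntsr2. For Gja1 it was close to the nearest, with 197.4 CPM against 197.3 CPM in 1L. Library 8L was also the lowest saline library for Aqp4 and the highest for Slc1a2, members whose groups overlapped. The cause of the higher Lcn2 in 8L was not tested. CPM are counts scaled to a common library total by TMM factors. Results from the 4 libraries with agreeing labels alone (5L and 7L against 1L and 3L) are given where they change a call.

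In the textbook cycle, glutamate released at synapses enters astrocytes through the products of Slc1a2 (GLT-1) and Slc1a3 (GLAST), is converted to glutamine by the product of Glul and is returned to neurons as glutamine. Potassium enters through Kir4.1, encoded by Kcnj10, which lies with the water channel aquaporin 4 on endfeet at blood vessels, and ions and metabolites spread between astrocytes through gap junctions of connexin 43 (Gja1) and connexin 30 (Gjb6). Aldh1l1 encodes a cytosolic formyltetrahydrofolate dehydrogenase and Ntsr2 a low-affinity neurotensin receptor, and both are widely used to mark astrocytes in the rodent brain.

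RefSeq promoter windows (GRCm38.p6), matched by symbol, were used for 8 of the 9 members, and the 250 bases before the annotated start were searched. Aqp4 was left out, so nothing is said here of motifs in its promoter. The 4 windows shown are those of the connexin pair, whose transcripts moved in opposite directions with LPS, and of the riser and the faller that held the most motif matches. The Gja1 window is chr10:56377050-56377299 on the plus strand and the Gjb6 window chr14:57133612-57133861 on the minus strand. The Aldh1l1 window is chr6:90550543-90550792 on the plus strand, at a start that lies inside the span GENCODE gives the gene, and the Ntsr2 window is chr12:16653220-16653469 on the plus strand. Each is written 5′ to 3′ along its gene, with matches to the motifs named next in capitals.
Gja1: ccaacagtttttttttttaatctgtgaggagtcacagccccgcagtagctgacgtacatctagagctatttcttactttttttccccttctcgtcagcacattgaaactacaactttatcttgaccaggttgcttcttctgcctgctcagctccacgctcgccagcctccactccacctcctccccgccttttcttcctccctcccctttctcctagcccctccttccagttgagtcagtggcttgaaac
Gjb6: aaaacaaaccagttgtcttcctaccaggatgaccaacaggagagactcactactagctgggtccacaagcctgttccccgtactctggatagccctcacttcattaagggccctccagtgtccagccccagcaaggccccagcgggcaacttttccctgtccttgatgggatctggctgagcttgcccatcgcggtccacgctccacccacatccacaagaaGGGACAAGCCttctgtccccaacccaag
Aldh1l1: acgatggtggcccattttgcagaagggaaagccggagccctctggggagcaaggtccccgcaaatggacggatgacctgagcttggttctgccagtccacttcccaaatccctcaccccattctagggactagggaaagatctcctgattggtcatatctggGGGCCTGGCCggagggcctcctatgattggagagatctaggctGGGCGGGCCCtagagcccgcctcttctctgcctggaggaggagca
Ntsr2: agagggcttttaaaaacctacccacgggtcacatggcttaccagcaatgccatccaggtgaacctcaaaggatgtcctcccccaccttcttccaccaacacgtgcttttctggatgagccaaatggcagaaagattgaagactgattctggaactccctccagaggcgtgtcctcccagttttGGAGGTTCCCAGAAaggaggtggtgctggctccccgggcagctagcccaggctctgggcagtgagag

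The motifs, searched on both strands, were the STAT site TTCNNNGAA, the NFI site TTGGCA, the SOX core ACAAAG, an NF-kB site GGGNNNNNCC and the glucocorticoid response element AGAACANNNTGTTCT. The NF-kB letters were found once in the windows of Kcnj10, Gjb6 and Ntsr2 and 2 times in that of Aldh1l1, and the STAT letters in those of Slc1a3 and Ntsr2. In Ntsr2 the STAT match, TTCCCAGAA, overlaps the NF-kB match. The NF-kB letters occur in 45.8% and the STAT letters in 7.02% of all 32851 promoter windows of this length. The NFI site (12.3% of windows), the SOX core (16.5%) and the glucocorticoid element (0.00913%) had no match in these 8 windows. Members that fell (Kcnj10, Ntsr2) and members that rose (Gjb6, Aldh1l1) both held NF-kB letters, and the Gja1, Glul and Slc1a2 windows held none of the 5 motifs. Kcnj10 and Glul had the most CpG dinucleotides, 17 and 15 in 250 bases against a median of 6 over all windows. Slc1a2 had 1, in a window at chr2:102706188-102706437 on the plus strand. Like that of Aldh1l1, the Slc1a2 window lies inside the span GENCODE gives the gene. Sequence before the start of that span was not searched.

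In prefrontal cortex 5 of the 9 members were lower and 2 higher with LPS, and the connexin pair parted. Gja1, Kcnj10, Ntsr2, Slc1a3 and Glul fell, by 15.3% to 35.9% of the saline level, while Gjb6 rose by 66.5% and Aldh1l1 by 26.5%. Slc1a2 and Aqp4 did not pass the threshold, an adjusted p under 0.05 in edgeR's quasi-likelihood test over 17760 genes. Over all genes tested 19.7% were called lower and 21.5% higher, and the median log2 change was 0.01, against -0.24 for the 9 members. The CPM ranges of the LPS and saline libraries did not overlap for 7 of the 9 members, a state that 37.1% of all genes shared. The 9 members together took 0.530% to 0.635% of the normalised counts in LPS libraries and 0.606% to 0.645% in saline libraries, ranges that overlap.

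**Figure D1:**
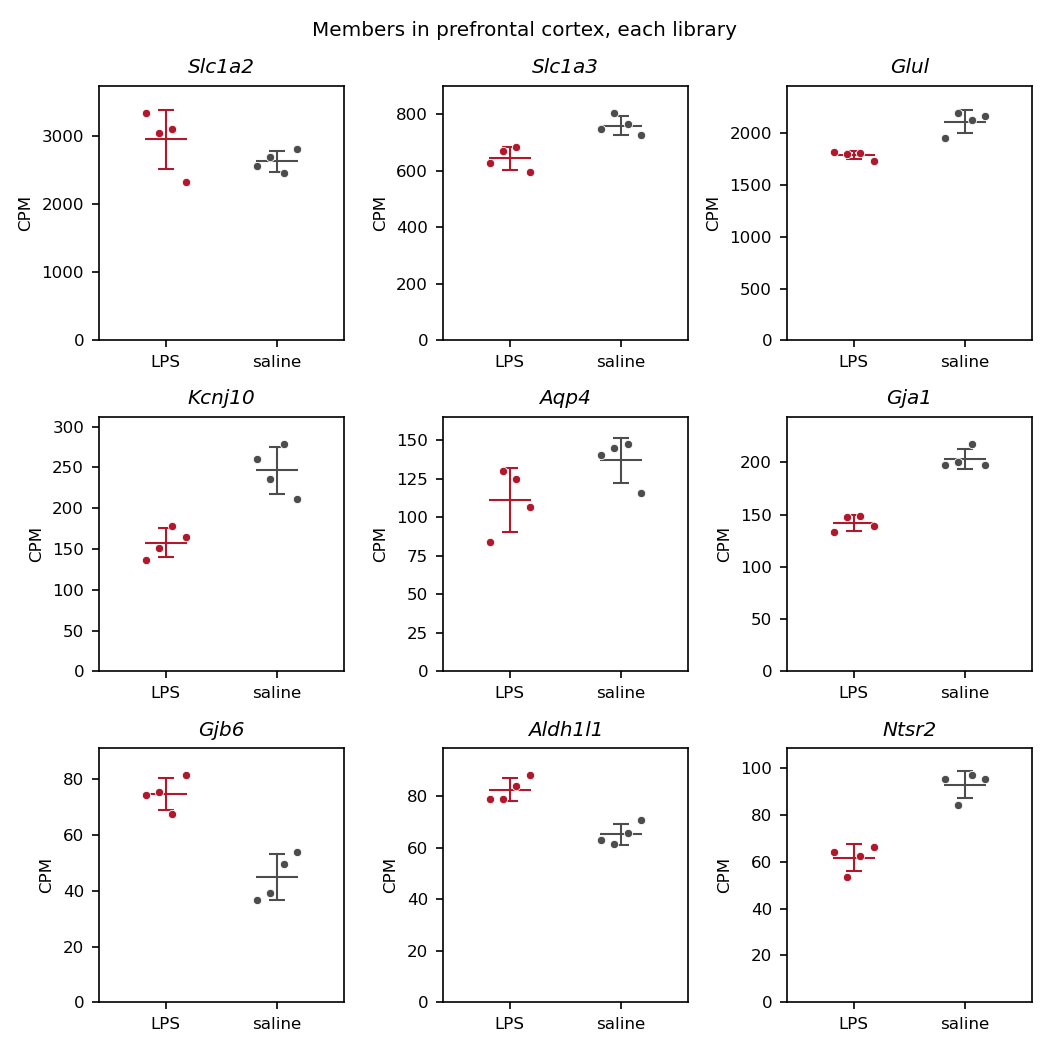
CPM of each member in every prefrontal cortex library, LPS left and saline right, with a horizontal bar at the mean and an error bar of 1 SD (n = 4 each). The LPS points lie wholly below the saline points for Slc1a3, Glul, Kcnj10, Gja1 and Ntsr2 and wholly above them for Gjb6 and Aldh1l1, while Slc1a2 and Aqp4 overlap.

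Of the glutamate genes, Slc1a3 and Glul fell, and Slc1a2 did not pass the threshold. Slc1a3, the transporter most associated with Bergmann glia and developing astrocytes, had 626, 671, 682 and 595 CPM in LPS libraries 2L, 4L, 5L and 7L and 747, 803, 763 and 726 CPM in saline libraries 1L, 3L, 6L and 8L. Every LPS library lay below every saline library. The log2 change was -0.24 (SE 0.07, 95% confidence interval -0.38 to -0.10, edgeR adjusted p = 0.0131).

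Glul, which condenses glutamate with ammonia, had 1820, 1802, 1809 and 1738 CPM with LPS and 1959, 2195, 2133 and 2172 CPM with saline. The LPS libraries were tightly grouped and all below the lowest saline library, 1L. Its log2 change was also -0.24 (SE 0.06, interval -0.37 to -0.11, edgeR adjusted p = 0.00806). In the 4 libraries with agreeing labels Slc1a3 and Glul kept the size of their change (-0.29 and -0.24) but did not pass. Their edgeR adjusted p of 0.100 and 0.183 were the highest over all alternatives other than grouping by title. The lowest adjusted p were 0.00488 for Slc1a3 (edgeR with library totals alone) and 0.00143 for Glul (DESeq2).

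Slc1a2, the main forebrain glutamate transporter, had 3329, 3042, 3093 and 2316 CPM with LPS and 2557, 2686, 2451 and 2805 CPM with saline. Of the LPS libraries 2L, 4L and 5L were above every saline library and 7L was below them all. The log2 change was 0.17 (SE 0.10, interval -0.05 to 0.39, edgeR adjusted p = 0.207), and without library 7L it was 0.26 and passed, with an adjusted p of 0.0143. Without library 2L it was 0.10 (adjusted p = 0.440), and in the 4 libraries with agreeing labels 0.03 (0.890). Over all alternatives other than grouping by title its adjusted p ran from 0.0143 to 0.890. Library 7L also had the lowest summed level of 8 striatum markers among LPS libraries, 394 CPM against 1023.05 to 1713 CPM in the other 3, while saline libraries had 306 to 1276 CPM. Saline libraries 1L and 8L, with 306 and 445 CPM of these markers, had 2557 and 2805 CPM of Slc1a2. With the mean log2 CPM of those markers as a covariate the Slc1a2 change was 0.11 (edgeR adjusted p = 0.333). The part of these markers in the Slc1a2 level of 7L was not tested.

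Within each library the ratio of Slc1a2 to Slc1a3 counts, which does not depend on library size, was 5.31, 4.53, 4.53 and 3.89 with LPS and 3.42, 3.34, 3.21 and 3.86 with saline. All 4 LPS libraries were above all 4 saline libraries, with 7L (LPS) and 8L (saline) nearly meeting. The mean log2 ratio was 0.40 higher (SE 0.11), with a two-sided exact permutation p of 0.0286, the smallest that 4 against 4 allows, and 0.0857 after Benjamini-Hochberg adjustment over the 6 ratio comparisons made.

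Of 18 other genes of glutamate and glutamine handling, all tested, 3 rose and 5 fell, with a median log2 change of 0.00 against 0.01 over all genes. Slc38a3, the SN1 transporter through which astrocytes export glutamine, fell to 34.8, 39.5, 44.5 and 50.5 CPM in LPS libraries 2L, 4L, 5L and 7L, against 115, 95.5, 113 and 93.7 CPM in saline libraries 1L, 3L, 6L and 8L. The groups did not overlap (log2 change -1.30, SE 0.12, edgeR adjusted p = 1.42e-05). Slc38a5, a related glutamine transporter, had 0.122 ± 0.0779 CPM with LPS and 2.92 ± 1.01 CPM with saline (SD, n = 4 each; log2 change -4.54). The LPS level of Slc38a5 was near the floor, so the size of its change is uncertain. Grm3, a metabotropic glutamate receptor gene, fell by 0.79 on the log2 scale. Slc38a1, a neuronal glutamine importer, and the vesicular transporter gene Slc17a6 were the other genes that fell. Slc1a5 (0.77), Slc38a2 (0.42) and the mitochondrial aspartate aminotransferase gene Got2 (0.22) rose, and the neuronal transporter gene Slc1a1 (0.04) did not pass.

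Kcnj10 fell further than either glutamate gene. It had 137, 152, 178 and 165 CPM in LPS libraries 2L, 4L, 5L and 7L and 260, 235, 278 and 212 CPM in saline libraries 1L, 3L, 6L and 8L. No LPS library reached the lowest saline library, 8L. The log2 change was -0.64 (SE 0.10, interval -0.86 to -0.42, edgeR adjusted p = 0.000535).

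Aqp4 had 84.2, 130, 125 and 107 CPM in LPS libraries 2L, 4L, 5L and 7L and 141, 145, 148 and 116 CPM in saline libraries 1L, 3L, 6L and 8L. The groups overlapped through saline library 8L, and the lowest value was in LPS library 2L. The log2 change was -0.30 (SE 0.13, interval -0.58 to -0.02, edgeR adjusted p = 0.0773). The call for Aqp4 depended on single libraries and settings: it passed without LPS library 4L (-0.39, adjusted p = 0.0443), without saline library 8L (-0.38, 0.0381), with no filter on low counts (0.0355) and with library totals as the only scaling (0.0427). Without LPS library 2L the change was -0.19 (adjusted p = 0.135). Over all alternatives other than grouping by title its adjusted p ran from 0.0355 to 0.147. The ratio of Aqp4 to Kcnj10 counts was 0.614, 0.857, 0.701 and 0.646 with LPS and 0.542, 0.616, 0.530 and 0.547 with saline, overlapping at 1 pair of libraries (2L and 3L), a log2 difference of 0.32 (SE 0.12, two-sided exact permutation p = 0.0571, adjusted p = 0.0877).

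Kcnj16, whose Kir5.1 subunit joins Kir4.1 in mixed channels, fell more than Kcnj10, to 16.3, 15.5, 16.8 and 17.9 CPM in LPS libraries, against 35.7, 38.8, 35.1 and 36.7 CPM in saline libraries. The groups were narrow and well apart, and the change on the log2 scale was -1.14 (SE 0.08, edgeR adjusted p = 3.87e-06). Of the 13 other genes of potassium, water and ion handling, 3 fell and 3 rose. The two-pore potassium channel gene Kcnk10 fell by 0.57 on the log2 scale, while the cation channel gene Trpv4 (1.20) and the pump subunit gene Atp1b2 (0.18) rose.

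Among 10 genes of Aqp4 anchoring and the astrocyte endfoot, 4 fell and 1 rose. Dtna, which encodes the dystrobrevin of the anchoring complex, fell by 0.49, the receptor gene Gpr37l1 by 0.47 and Mlc1 by 0.23 on the log2 scale. Hepacam, the partner of Mlc1, rose by 0.19. Dag1 (-0.06) and Dmd (-0.07), also parts of the dystrophin complex, did not pass.

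The connexin genes moved in opposite directions. Gja1 had 133, 148, 148 and 139 CPM in LPS libraries 2L, 4L, 5L and 7L and 197, 200, 217 and 197 CPM in saline libraries 1L, 3L, 6L and 8L. All LPS libraries were lower, with a log2 change of -0.52 (SE 0.07, interval -0.66 to -0.37, edgeR adjusted p = 0.000149).

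Gjb6 had 74.4, 75.3, 67.7 and 81.4 CPM with LPS and 36.7, 39.2, 49.6 and 53.8 CPM with saline. All LPS libraries were higher, and saline libraries 6L and 8L were higher than 1L and 3L. The log2 change was 0.74 (SE 0.12, interval 0.48 to 0.99, edgeR adjusted p = 0.000626).

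There were 1.79, 1.96, 2.19 and 1.70 counts of Gja1 for each count of Gjb6 in LPS libraries 2L, 4L, 5L and 7L and 5.37, 5.11, 4.38 and 3.67 in saline libraries 1L, 3L, 6L and 8L. The highest LPS ratio was well below the lowest saline ratio, that of 8L. The mean log2 ratio was 1.27 lower with LPS, a difference of -1.27 (SE 0.15, two-sided exact permutation p = 0.0286, the smallest possible; adjusted p = 0.0857). Leaving out any 1 library kept it between -1.38 and -1.19.

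Of 12 other connexin, pannexin and scaffold genes, 4 fell and 0 rose by edgeR, and these include connexins of oligodendrocytes, which pair with Gja1 and Gjb6 at astrocyte contacts. Gjb1 (connexin 32) averaged 3.09 ± 1.31 CPM with LPS and 12.3 ± 1.38 CPM with saline (SD, n = 4 each; log2 change -1.99, SE 0.24, edgeR adjusted p = 0.000101), Gjc3 fell by 0.68 and Panx2 by 0.37 on the log2 scale. The sums of 8 oligodendrocyte markers were 2615 to 3550 CPM with LPS and 2931 to 3935 CPM with saline, with 3 of the 8 lower; their part in the fall of Gjb1 was not tested. Gjb2 (-0.17), the third astrocyte connexin gene, did not pass.

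**Figure D2:**
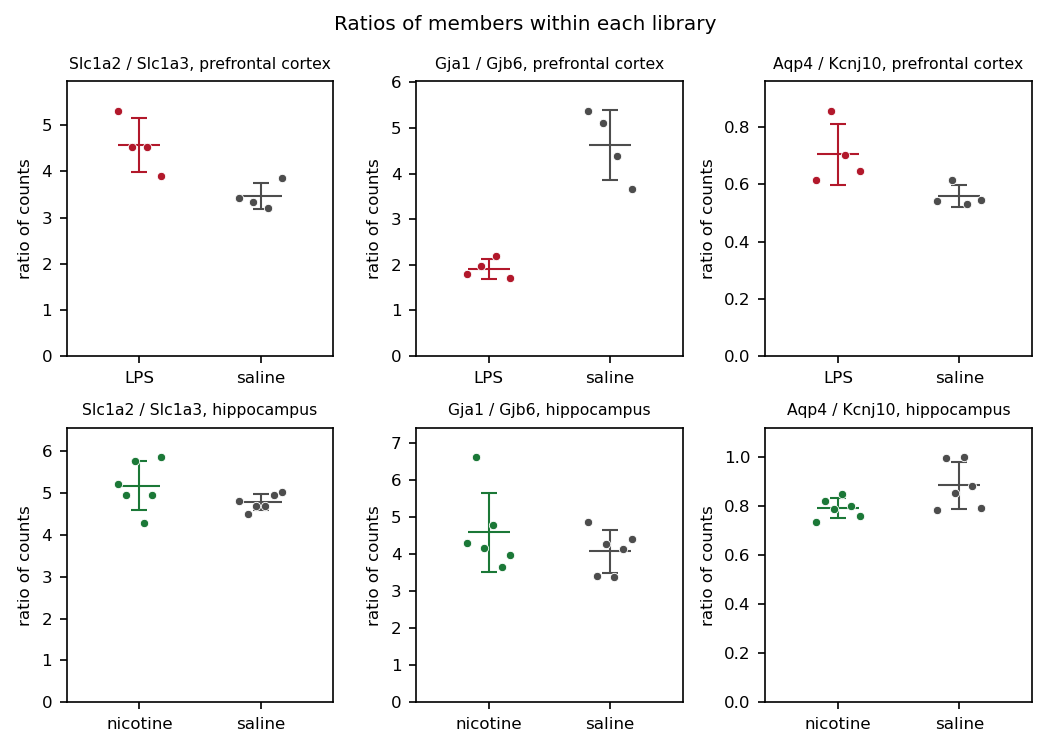
Ratios of the counts of 2 members within each library (y axis, a plain ratio), for prefrontal cortex above and hippocampus below, treated libraries left and saline right, with the mean and 1 SD. Gja1 over Gjb6 in cortex is 1.70 to 2.19 with LPS and 3.67 to 5.37 with saline, while the hippocampal groups overlap in all 3 ratios.

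Aldh1l1 rose and Ntsr2 fell, although both serve as astrocyte markers. Aldh1l1 had 79.0, 78.9, 83.8 and 88.1 CPM in LPS libraries 2L, 4L, 5L and 7L and 63.0, 61.3, 65.6 and 70.8 CPM in saline libraries 1L, 3L, 6L and 8L. All LPS libraries were higher than all saline libraries (log2 change 0.34, SE 0.07, interval 0.18 to 0.49, edgeR adjusted p = 0.00303). In the GENCODE annotation 11% of its exonic length overlaps the antisense gene Gm15756, whose reads cannot be told apart if strand was not used in counting.

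Ntsr2 had 64.3, 53.3, 62.3 and 66.3 CPM with LPS and 95.1, 84.2, 96.8 and 95.02 CPM with saline. The groups were separate, and 4L was the lowest library of the LPS group and 3L of the saline group. The log2 change was -0.59 (SE 0.08, interval -0.77 to -0.41, edgeR adjusted p = 0.000254).

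Of 10 other folate and one-carbon enzyme genes, 5 rose and 2 fell. Shmt1, the cytosolic serine hydroxymethyltransferase, was raised the most, to 3.93, 4.72, 4.50 and 4.66 CPM in LPS libraries, against 0.590, 0.727, 1.04 and 1.02 CPM in saline libraries (log2 change 2.39, SE 0.21, edgeR adjusted p = 1.53e-05). Mthfd1l (0.89) and Mtfmt (0.37) also rose, while Mthfd1 fell by 0.35 and Aldh1l2, the mitochondrial relative of Aldh1l1, by 0.54 on the log2 scale. Of 4 other neurotensin genes, the receptor gene Ntsr1 fell by 0.54, the sortilin gene Sort1 rose by 0.26, and the peptide gene Nts (-0.90, edgeR adjusted p = 0.34) and Sorl1 (-0.02) did not pass.

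Of 20 other astrocyte identity genes, 5 rose and 11 fell in cortex, with a median log2 change of -0.29. Gfap, the intermediate filament, had 384, 582, 517 and 500 CPM in LPS libraries 2L, 4L, 5L and 7L and 202, 193, 206 and 190 CPM in saline libraries 1L, 3L, 6L and 8L, a log2 change of 1.33 (SE 0.11). Library 2L, the lowest LPS library for Gfap, was also the lowest for Aqp4, Kcnj10 and Gja1 but the highest for Slc1a2 and Glul. Htra1 (0.78) and Fgfr3 (0.47) rose next by p, and Slc7a10 (-0.93), Cldn10 (-0.91) and Mfge8 (-0.85) fell. Sox9, the astrocyte transcription factor gene (0.26), and Aldoc (-0.14) did not pass.

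**Figure D3:**
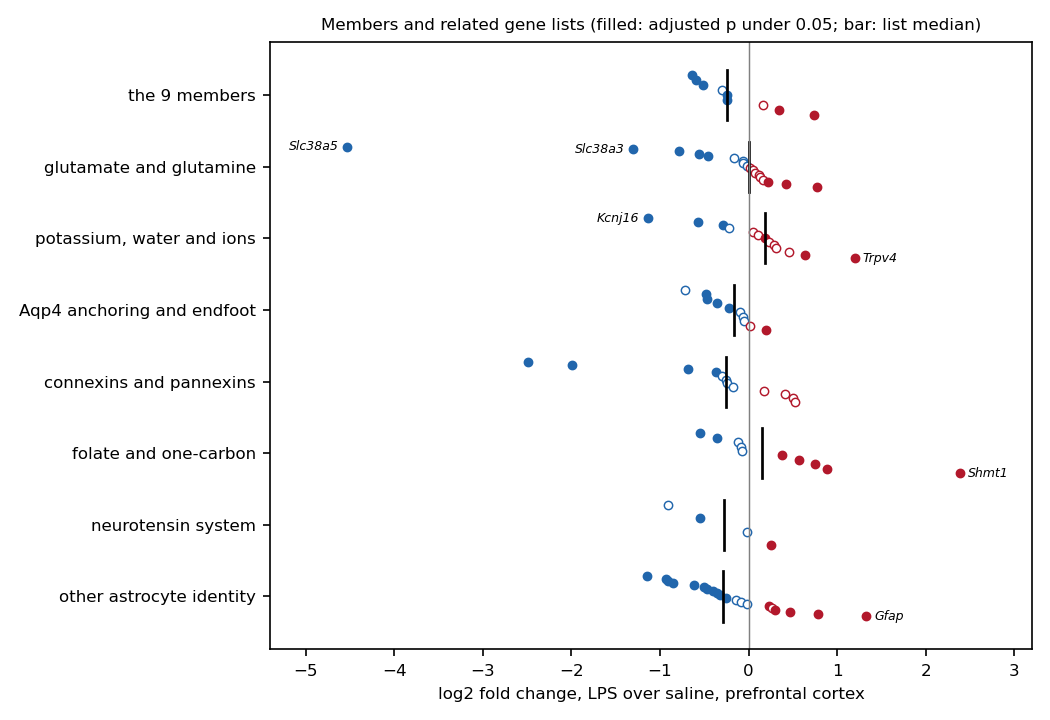
Log2 fold changes (LPS over saline) in prefrontal cortex for the 9 members and the tested genes of 7 related lists, filled where the edgeR adjusted p was under 0.05, with a bar at each list's median. Rises and falls occur in all lists but the connexins and pannexins, where 4 genes fell and 0 rose.

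Markers of other cells also moved in cortex, and their part in the members' changes was not tested. Of the markers tested, 1 rose and 2 fell of 7 for neurons (Rbfox3 up, Map2 and Gad1 down), 0 and 3 of 8 for oligodendrocytes (Cnp, Mog and Ermn), 1 and 4 of 5 for their precursors (Pdgfra up; Matn4, Gpr17 and Cspg4 led the falls), 0 and 3 of 6 for microglia (P2ry12 and Tmem119 among them), and 1 and 3 of 8 for vessels (Cldn5 up; Vtn, Kdr and Tek down). For meninges 1 of 5 rose (Dcn) and 2 fell (Slc6a13 and Col1a1), 2 of 4 peripheral leukocyte markers rose (S100a8 and Ngp), 1 of 6 choroid plexus markers rose (Kcne2), and 0 of 8 striatum markers passed by edgeR, the smallest p being that of Ppp1r1b (log2 change 1.14, adjusted p = 0.0553). Summed levels with LPS and with saline were 8948 to 10042 and 8267 to 9460 CPM for neurons, 191 to 270 and 300.4 to 327 CPM for microglia, 237 to 259 and 270 to 325 CPM for vessels, 90.4 to 103 and 140 to 163 CPM for oligodendrocyte precursors, 14.8 to 29.1 and 16.2 to 21.0 CPM for choroid plexus, 37.6 to 88.0 and 34.2 to 79.3 CPM for meninges, and 5.20 to 11.4 and 2.26 to 4.92 CPM for leukocytes. Tubb3 and Igf2 were at 0 in every cortical library, and Igf2 also in every hippocampal one. The cause of these zeros, such as a difference in counting, was not tested.

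Set by length, as CPM per kilobase of merged GENCODE vM21 exons, the members spanned a wide range of levels and their order differed with LPS. In LPS cortex the order was Glul (539 ± 11.1), Slc1a2 (224 ± 33.3), Slc1a3 (75.4 ± 4.73), Kcnj10 (29.2 ± 3.24), Gjb6 (27.9 ± 2.10), Ntsr2 (19.7 ± 1.85), Aldh1l1 (18.3 ± 0.974), Aqp4 (17.9 ± 3.32) and Gja1 (13.8 ± 0.717) CPM per kilobase (SD, n = 4). Neighbours overlapped between Kcnj10 and Gjb6 and from Ntsr2 down to Gja1. In saline cortex it was Glul (636 ± 32.1), Slc1a2 (200 ± 11.7), Slc1a3 (89.0 ± 3.83), Kcnj10 (45.5 ± 5.38), Ntsr2 (29.7 ± 1.84), Aqp4 (22.0 ± 2.35), Gja1 (19.8 ± 0.928), Gjb6 (16.8 ± 3.06) and Aldh1l1 (14.4 ± 0.914), and neighbours overlapped from Aqp4 down. The Gjb6 range lay wholly above that of Gja1 with LPS and overlapped it with saline. That order depends on the length used, 10257 bases of merged exons for Gja1 and 2674 for Gjb6. In counts not set by length, Gja1 was 1.70 to 2.19 times Gjb6 in LPS libraries. Merged exons include those of rare transcripts, so levels of genes with many transcripts, such as Aqp4 with 11 and Gja1 with 8, may be understated.

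In hippocampus none of the 9 members passed the threshold with nicotine. edgeR called 0 of 18873 genes (0%), 8.36% had an unadjusted p under 0.05, and DESeq2 called 15 genes and limma-voom 0; none of the members had an unadjusted p under 0.05. The members' log2 changes ran from -0.12 for Gjb6 to 0.14 for Kcnj10, with edgeR adjusted p of 0.646 to 0.973, and the groups overlapped for all 9. The 95% confidence intervals reached at most 0.43 from 0, at the lower end of Gjb6.

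**Figure D4:**
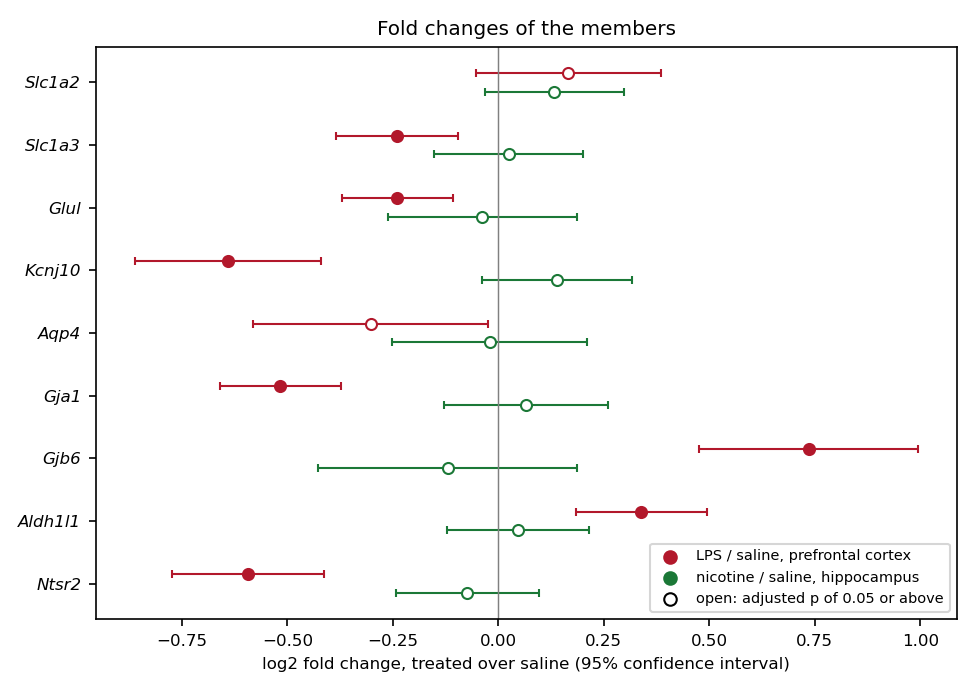
Log2 fold changes (treated over saline) of the members with 95% confidence intervals, LPS in prefrontal cortex in red and nicotine in hippocampus in green, filled where the edgeR adjusted p was under 0.05. In cortex 5 members are filled below 0 and 2 above, and in hippocampus all 9 are open with intervals that span 0.

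None of the glutamate genes passed in hippocampus. Slc1a2 had a lowest, median and highest value of 2911, 3217 and 3736 CPM with nicotine and of 2742, 2951 and 3299 CPM with saline, a log2 change of 0.13 (interval -0.03 to 0.30, edgeR adjusted p = 0.646). Slc1a3 had 562, 605 and 754 CPM with nicotine and 555, 601 and 703 CPM with saline (log2 change 0.02, interval -0.15 to 0.20). Glul had 1429, 1615 and 1814 CPM with nicotine and 1363, 1555 and 2192 CPM with saline (log2 change -0.04, interval -0.26 to 0.19). For each gene the medians lay closer together than the libraries of either group.

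Kcnj10 had a lowest, median and highest value of 178, 193 and 224 CPM with nicotine and 157, 171 and 217 CPM with saline (log2 change 0.14, interval -0.04 to 0.32, edgeR adjusted p = 0.657). Aqp4 had 138, 149 and 183 CPM with nicotine and 139, 147 and 216 CPM with saline (log2 change -0.02, interval -0.25 to 0.21). The ratio of Aqp4 to Kcnj10 counts was 0.735 to 0.848 with nicotine and 0.784 to 0.997 with saline, a log2 difference of -0.15 (SE 0.07, two-sided exact permutation p = 0.0584, adjusted p = 0.0877). The 2 highest ratios, 0.996 and 0.997, were in saline libraries 2N and 4N.

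Gja1 had a lowest, median and highest value of 217, 236 and 298 CPM with nicotine and 208, 223 and 278 CPM with saline (log2 change 0.07, interval -0.13 to 0.26). Gjb6 had 45.1, 54.99 and 64.4 CPM with nicotine and 45.5, 51.7 and 81.6 CPM with saline (log2 change -0.12, interval -0.43 to 0.19). Saline libraries 2N and 4N, at 81.6 and 79.6 CPM, stood above the 4 other saline libraries for Gjb6. The log2 ratio of Gja1 to Gjb6 differed by 0.16 (SE 0.15, two-sided exact permutation p = 0.351) and that of Slc1a2 to Slc1a3 by 0.11 (SE 0.07, exact permutation p = 0.180), with adjusted p of 0.351 and 0.216.

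Aldh1l1 had a lowest, median and highest value of 43.6, 51.9 and 56.5 CPM with nicotine and 44.8, 47.6 and 61.6 CPM with saline (log2 change 0.05, interval -0.12 to 0.22). Ntsr2 had 104, 121 and 130 CPM with nicotine and 112, 122 and 155 CPM with saline (log2 change -0.07, interval -0.24 to 0.10). Both had their highest value in saline library 2N.

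The members were often high or low together in single hippocampal libraries. Saline library 2N was the highest of its group for 7 members and among the top 2 for all 9, and saline library 5N was the lowest for 7. Among nicotine libraries, 8N was the highest for 5 and 9N the lowest for 6. Library 2N also had the lowest summed neuron markers of its group (6409 CPM against 7460 to 8175 CPM in the other 5) and the highest oligodendrocyte markers (8103 CPM against 2545 to 5658 CPM), and 1255 CPM of the choroid plexus gene Ttr. Other libraries ran the other way: 4N, among the top 2 saline libraries for 8 members, had the lowest oligodendrocyte sum of its group (2545 CPM) and 58.0 CPM of choroid plexus markers, and 8N, high for most members, had the highest neuron sum of the nicotine group (8883 CPM). Library 5N, the lowest for 7 members, had the highest choroid plexus sum (4056 CPM). The part of these markers in the members' levels was not tested. Over all 12 libraries summed choroid plexus markers ran from 59.5 to 2383 CPM with nicotine and from 42.3 to 4056 CPM with saline. With the mean log2 CPM of those markers as a covariate, 0 members passed by edgeR. Without the 4 libraries above 1000 CPM of Ttr (2 nicotine, 2 saline) the members' changes were -0.10 to 0.19, with edgeR adjusted p of 0.298 to 0.952.

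**Figure D5:**
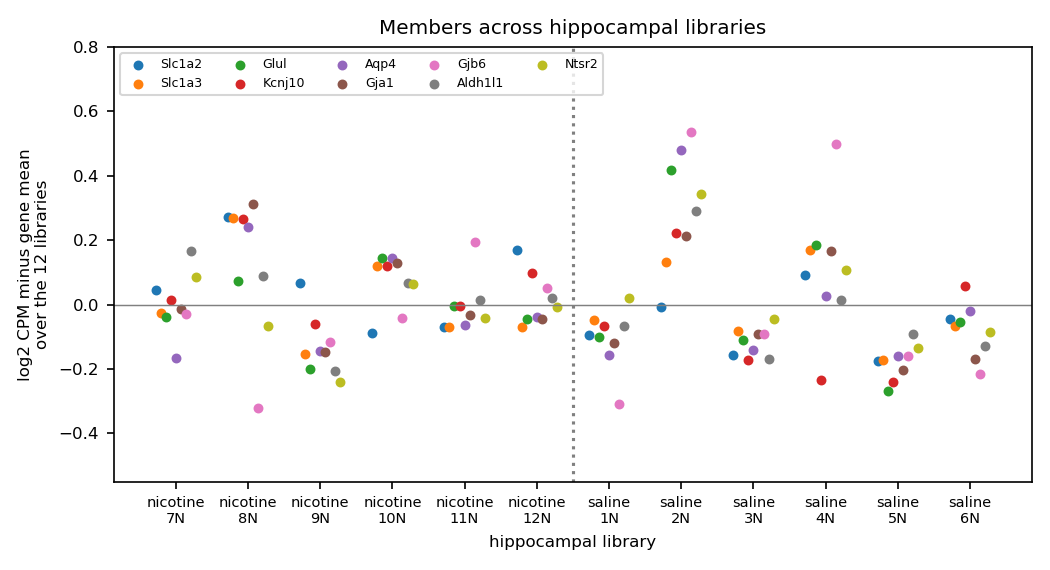
Log2 CPM of each member minus its mean over the 12 hippocampal libraries (y axis), by library, nicotine left of the dotted line and saline right. Saline library 2N is high for most members and saline library 5N low, and Gjb6 departs from the other members in libraries 8N and 4N.

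Co-variation within groups was described with no test. As a description over 12 libraries of 1 batch, the Pearson r of each member's log2 CPM, centred on its group mean, with the mean of the other 8 was 0.41 for Slc1a2 and 0.52 for Gjb6 at the low end and 0.97 for Glul at the high end. Over the 8 cortical libraries it ran from -0.45 for Slc1a2 to 0.89 for Gja1. Among genes of at least 10 CPM, the profiles most like the members' mean were those of Gng12 (r = 0.98), 2900052N01Rik (0.97), Rps2 (0.96), Ndrg2 (0.96) and Rftn2 (0.96) in hippocampus and of Stam (0.99), Clip4 (0.98), Gad2 (0.98), Mapk1ip1l (0.97) and Phip (0.97) in cortex. Libraries of a tissue share a batch and a count table, and 10115 hippocampal and 10002 cortical genes were compared.

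Per length the hippocampal order was that of saline cortex, except that Ntsr2 stood above Kcnj10. With nicotine it was Glul (491 ± 39.5), Slc1a2 (248 ± 24.1), Slc1a3 (74.2 ± 8.29), Ntsr2 (38.5 ± 3.03), Kcnj10 (36.2 ± 2.99), Aqp4 (24.9 ± 2.89), Gja1 (24.1 ± 2.82), Gjb6 (20.6 ± 2.41) and Aldh1l1 (11.4 ± 0.956) CPM per kilobase (SD, n = 6). The order with saline was the same, from 504 ± 90.8 for Glul to 11.0 ± 1.36 for Aldh1l1. Neighbours overlapped between Ntsr2 and Kcnj10 and from Aqp4 to Gjb6 with nicotine, and from Ntsr2 to Gjb6 with saline.

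None of the 7 related lists had a gene past the threshold in hippocampus (edgeR, 0 called of 87 list genes). The smallest p of a list belonged to Slc38a1 (log2 change 0.21), Atp1b2 (0.20), Aqp11 (-0.16), Gjd2 (0.21), Tyms (-0.15) and Ntsr1 (0.48) for 6 of the lists, with adjusted p of 0.555 to 0.753. Of the marker lists for other cells, 0 genes passed either, and the smallest p values were those of Tubb3, Mag, Cspg4, Tmem119, Pecam1, Kl, Rgs9, Itgal and Lum, with adjusted p of 0.555 to 0.835. Tubb3, at 0 in the cortical table, had 270 ± 23.8 CPM with nicotine and 237 ± 19.6 CPM with saline (SD, n = 6 each) in the hippocampal table.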

How the data were processed

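Poly(A) libraries were made from TRIzol-extracted RNA, per the labels' protocols. For each tissue the authors deposited 1 table of raw counts. Tools named without versions or roles are fastp, STAR, featureCounts and DESeq2, and the build is mm10, per the submitters' processing notes. Not given in the sources used here are the annotation, the strand setting, how nicotine was given and the sex of its mice. Of the 57180 hippocampal Ensembl identifiers 51884 matched GENCODE vM21, which also gave exon lengths; all 9 members matched.

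The members, gene lists and tests were chosen with earlier results of these data known. Members are all named; of each other list, up to 3 genes with the smallest p past the threshold in each direction, or else the gene with the smallest p. Others were named after their values were seen, and some genes the rule names are not reported here. Fits were made per tissue with edgeR 4.0.16 under R 4.3.3 (TMM, filterByExpr, quasi-likelihood F-test, Benjamini-Hochberg over all genes, threshold 0.05). Genes called in cortex numbered 7313. CPM are TMM-scaled, and the median 95% interval of a log2 change reached 0.29 to either side in cortex and 0.22 in hippocampus. Ratios were tested with two-sided exact permutation tests on log2 values, adjusted over 6. Steps were tested on simulated data. The titles call libraries of a group biological replicates. No libraries of a group agreed within sampling noise (lowest chi-square per degree of freedom 11.0). Alternatives were DESeq2 1.42.0, limma-voom (limma 3.58.1), RLE and upper-quartile factors, library totals alone, no filter, a filter of 1 CPM, each library left out, a replicate block, groupings by label, marker covariates, leaving out libraries above 1000 CPM of Ttr, and for ratios a pseudocount of 1.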

Additional observations from a re-analysis of the deposited data

Results flagged for a closer look

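There were 4 values that stood apart in their groups, out of 48 groups examined, where chance flags about 1 in 20. In hippocampus saline library 2N was far above the 5 other saline libraries for Aqp4, with 216 CPM against 139 to 158 CPM, and for Aldh1l1, with 61.6 CPM against 44.8 to 50.8 CPM. In prefrontal cortex saline library 6L was above the 3 other saline libraries for Gja1, with 217 CPM against 197 to 200.3 CPM, and saline library 3L was below them for Ntsr2, with 84.2 CPM against 95.02 to 96.8 CPM. All 4 were saline libraries. Gja1 in 6L lay further from the LPS libraries than its group, and Ntsr2 in 3L was still above the highest LPS library, at 66.3 CPM.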

How the results depend on the processing

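In prefrontal cortex the 5 members that fell and the 2 that rose kept their direction under all alternatives but grouping by title, and the call under all but that and the use of libraries with agreeing labels alone. Grouping by title called 0 genes and 0 members in either direction. It turned the signs of Slc1a2 (-0.12), Glul (0.014), Kcnj10 (0.087), Gja1 (0.049) and Ntsr2 (0.11) and of the log2 ratios of Slc1a2 to Slc1a3 (-0.084) and Aqp4 to Kcnj10 (-0.11). Libraries with agreeing labels alone, 2 per group, called 5690 genes and 3 members lower, without Slc1a3 and Glul. Over the other alternatives cortical calls numbered 5703 to 8481, and the replicate block, in which the title number pairs libraries, called 6064 and changed no member's call. Those numbers do not show pairing: libraries with the same number correlated at -0.15 to -0.02 in cortex and -0.16 to 0.42 in hippocampus, where the replicate block called 0 genes. In a paired exact test 4 pairs cannot go below 0.125, the value for all 3 cortical ratios.

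In hippocampus DESeq2 called 15 genes, and 1 was called without libraries above 1000 CPM of Ttr; leaving out single libraries called 0 to 1. No member was called under any alternative. Small changes turned sign for Slc1a3 (-0.029 to 0.062 over left-out libraries, and -0.00076 with library totals alone), Glul (-0.092 to 0.054) and Aqp4 (-0.071 to 0.091 over left-out libraries, and 0.052 without libraries above 1000 CPM of Ttr); the cause was not tested. The lowest count of a member in any library was 1432 in cortex and 2246 in hippocampus.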
